A study of Homo sapiens with 9 samples.

Results

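MX1, MX2, IFITM1, IFITM2, IFITM3, BST2 and RSAD2 encode antiviral effector proteins, and their mRNA was followed across 3 stable lines of T47D, a widely used cell line from a human breast cancer of luminal type. The members were found by the gene name that the array files give each probe, which selected 11 of the 58201 probes and 7 of the 43395 genes on the array. The lines were made by transfection of the pTARGET vector and selection with G418, and all of them carry this vector. T47D-VC1 holds the empty vector, T47D-PA5 an incomplete cDNA and T47D-PA6 the full-length cDNA of PTH-AS, a long noncoding RNA transcribed antisense downstream of the parathyroid hormone gene. T47D-PA5 served the study as a negative control, because its insert lacks a stretch of the transcript. Of the G418-resistant cells that expressed the cDNA highly, 1 was kept for each cDNA, so a difference between lines and a difference between single clones cannot be told apart. Total RNA of each line was hybridised to 3 single-color arrays, 9 in all. The sources do not state whether the 3 arrays of a line came from separate cultures, and the p-values measure only the spread between these arrays. PTH-AS itself was not analysed here.

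Type I interferon is sensed at the cell surface by the IFNAR1 and IFNAR2 receptor chains, whose kinases JAK1 and TYK2 pass the signal on. A complex that contains IRF9 then binds the interferon-stimulated response element (ISRE) in the promoters of many antiviral genes. The 7 genes studied here are interferon-stimulated genes that act at different steps of a viral life cycle. The MX proteins are dynamin-like GTPases that act on incoming viral particles, the IFITM proteins sit in membranes and hinder fusion, BST2 (tetherin) holds budding virions at the cell surface, and RSAD2 (viperin) is a radical SAM enzyme that makes a chain-terminating nucleotide.

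The promoter sequences are shown because 6 of the 7 genes moved together in the comparison of T47D-PA6 with T47D-VC1, described below. RefSeq promoter windows on GRCh38.p14, each 300 bases long with 250 bases before the annotated start and 50 after it, were at hand for 5 of the 7 genes, and MX1 and RSAD2 had more than 1 window, so that there were 8 windows in all. MX2 and IFITM2 had no entry. The ISRE core was searched as GAAANNGAAA on both strands. All 5 genes held at least 1 match, in 6 of the 8 windows, and 3.57% of all 35116 windows and 4.38% of all 27305 genes with a window held one. In the stretches below the matches are in capitals, and each is written in the direction of its gene.
IFITM1, chr11:313964-314043, plus strand: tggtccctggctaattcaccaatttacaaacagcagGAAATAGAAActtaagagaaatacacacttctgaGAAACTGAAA
IFITM3, chr11:320861-320940, minus strand: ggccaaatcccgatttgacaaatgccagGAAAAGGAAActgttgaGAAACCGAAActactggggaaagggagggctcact
BST2, chr19:17405715-17405794, minus strand: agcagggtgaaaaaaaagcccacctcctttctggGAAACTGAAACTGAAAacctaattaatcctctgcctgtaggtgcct
RSAD2, chr2:6877592-6877671, plus strand: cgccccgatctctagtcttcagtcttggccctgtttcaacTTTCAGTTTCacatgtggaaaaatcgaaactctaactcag
MX1, chr21:41420559-41420588, plus strand: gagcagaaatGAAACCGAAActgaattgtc

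In IFITM1 the matches run from -40 to -31 and from -6 to 4 relative to the annotated start, counting the first transcribed base as 1. In IFITM3 they run from -52 to -43 and from -35 to -26. The matches of BST2, from -130 to -121 and from -124 to -115, overlap each other. The RSAD2 match lies at -145 to -136 and reads as the ISRE core on the opposite strand. The MX1 match shown lies just after the start, from 12 to 21, and a further MX1 window held a match on the opposite strand from -196 to -187. The gamma-activated sequence (GAS), searched as TTCNNNGAA, was found in 3 of the 8 windows, those of IFITM1, BST2 and MX1, and in 7.66% of all windows. In each of these genes a GAS match overlapped an ISRE core match, and BST2 held a further one from -58 to -50. A match is a description of letters, and binding at these sites was not measured.

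The probes for IFITM2 and IFITM3 are shown because these genes are close copies of each other, so that a probe can capture both transcripts. Each probe has 60 bases, and on hg19, the build of the array files, the IFITM2 probe lies at chr11:309109-309168 and the IFITM3 probe at chr11:319855-319914. Their overlap of 40 bases, starting at base 1 of the IFITM2 probe and base 21 of the IFITM3 probe, holds 34 matching bases, which are in capitals below.
IFITM2: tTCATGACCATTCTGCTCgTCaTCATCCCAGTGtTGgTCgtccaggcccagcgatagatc
IFITM3: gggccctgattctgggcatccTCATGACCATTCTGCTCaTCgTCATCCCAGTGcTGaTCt

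The longest identical run between them is 17 bases, and 0 probes of other genes on the array share a run of 20 bases with a member's probe. That search compared probes and not transcripts, and a run of 17 bases escapes it. It therefore does not show whether a member's probe captures other transcripts. The values of IFITM2 and IFITM3 are uncertain to the extent that either transcript binds the other probe, which was not tested. The other probes lie on hg19 at chr21:42831014-42831073 (MX1), chr21:42780501-42780560 and chr21:42735919-42735978 (MX2), chr11:315209-315268 and chr11:315054-315113 (IFITM1), chr19:17513748-17513807 and chr19:17514054-17514113 (BST2), and chr2:7037200-7037259 and chr2:7017216-7017275 (RSAD2). The exon or untranslated region that each falls in was not analysed here.

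On each array, 44.0% to 48.0% of the probes were well above background, as the scanner software marks them, and no probe was saturated. Replicate 1 of each line was on slide 1 and was scanned in an earlier run, and the other 6 arrays lay on slides 2 and 3. Within a line, replicates 2 and 3 differed by a median of 0.09 to 0.11 on the log2 scale over all genes tested, and replicate 1 differed from either by 0.21 to 0.27. All 8 luminal breast epithelial markers, among them the keratins KRT8, KRT18 and KRT19, EPCAM and the estrogen receptor ESR1, passed this mark on all arrays, and their summed signal was 475321 to 513970 on the 9 arrays. KRT19 made up most of this sum, with the same normalized value, 301366, on every T47D-VC1 and T47D-PA5 array. The sum therefore cannot show whether the other markers held steady. Of the 8 markers 1, the progesterone receptor PGR, was lower in T47D-PA6 (log2 fold change -1.07 against T47D-VC1, limma adjusted p = 0.00723).

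For all 7 genes, at least 1 probe was well above background on all 3 arrays of some line, so that all were tested, with 10 of their 11 probes. Compared with T47D-VC1, T47D-PA6 cells had higher mRNA signals of MX1, IFITM1, IFITM2, IFITM3, BST2 and RSAD2, and MX2 did not pass the test. These are 6 of 7 members called higher at an adjusted p-value under 0.05 in limma, and over all 20090 genes tested 4.69% were called higher. RSAD2 entered the test only through T47D-PA6, the line in which it was high, and of the other 6 members 5 were called. The median log2 fold change of the 7 members was 3.85, and that of all genes tested was -0.03. In T47D-PA5, 1 of 7 members, MX1, was called higher than in T47D-VC1, against 1.36% of all genes tested. Against T47D-PA5, T47D-PA6 had higher signals of the same 6 genes, and 3.65% of all genes were called higher there. The comparisons share arrays, so their counts are not independent. In RNA from whole cultures, a change in every cell and a change in the share of cells that express a gene cannot be told apart.

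**Figure D1:**
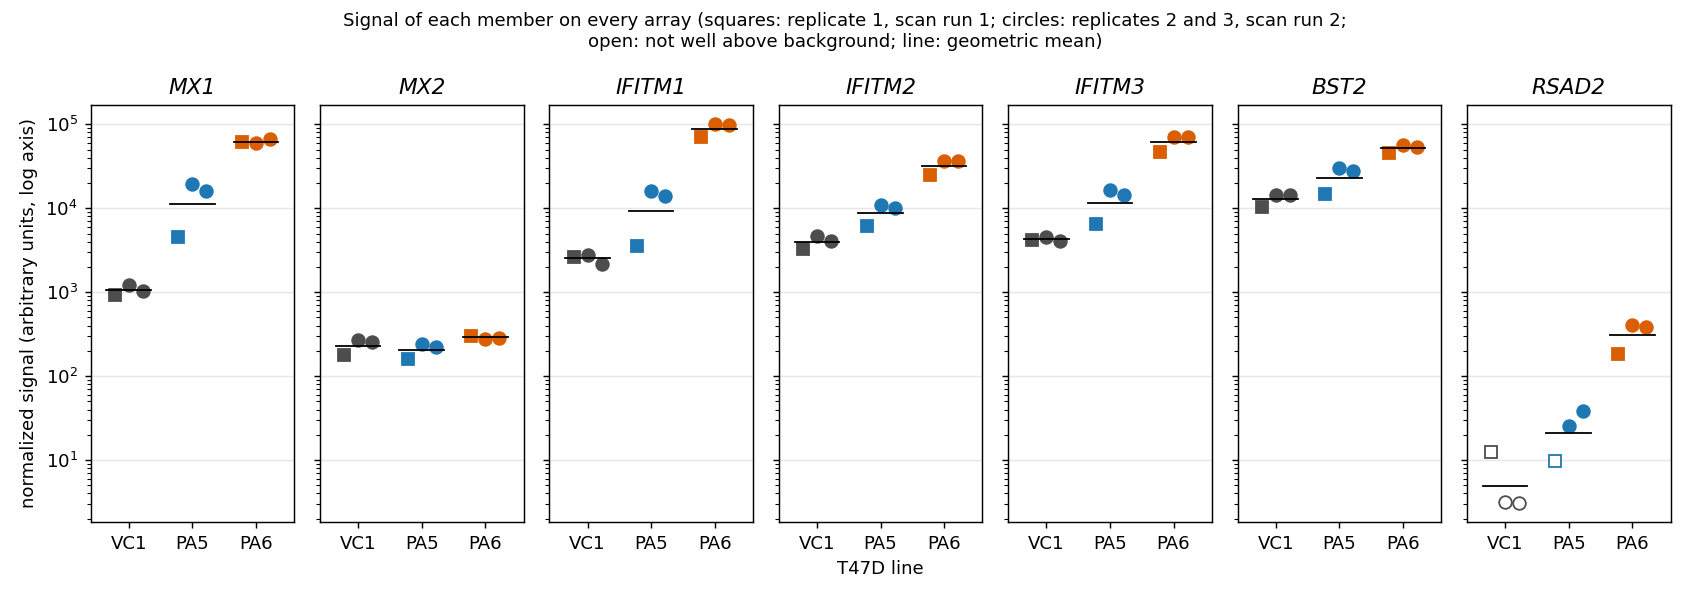
Quantile-normalized signal (arbitrary units, log axis) of the brightest tested probe of each member on the 3 arrays of T47D-VC1, T47D-PA5 and T47D-PA6, with the geometric mean of the line as a bar. Squares are replicate 1 (scan run 1), circles are replicates 2 and 3 (scan run 2), and open symbols are not well above background. The T47D-PA6 arrays stand above all others for every member, MX2 by a small margin, and the T47D-PA5 square lies below both circles.

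MX1, the dynamin-like GTPase best known for blocking influenza viruses, had signals of 918, 1226 and 1041 on the T47D-VC1 arrays (replicates 1 to 3). The signals were 4517, 19360 and 16028 in T47D-PA5 and 60751, 59722 and 66722 in T47D-PA6. The 3 groups did not overlap, the T47D-PA6 arrays lay closest together, and replicate 1 of T47D-PA5 lay far below its other arrays. The geometric means were 1054 (SD of log2 0.21, n = 3), 11192 (SD 1.14) and 62324 (SD 0.09). MX1 in T47D-PA6 was 59.1-fold above T47D-VC1 (log2 fold change 5.89, SE 0.47, limma adjusted p = 0.000503). It was 10.6-fold higher in T47D-PA5 than in T47D-VC1 (log2 3.41, SE 0.47, limma adjusted p = 0.0123) and T47D-PA6 was 5.57-fold above T47D-PA5 (log2 2.48, SE 0.47, limma adjusted p = 0.0152). MX1 was the only member called higher in all 3 comparisons, which was so for 0.179% of all genes tested. The call in T47D-PA5 over T47D-VC1 was lost without replicate 3 of T47D-VC1 (adjusted p = 0.0605 in limma) or of T47D-PA5 (0.0616), and that in T47D-PA6 over T47D-PA5 without replicate 2 (0.0555) or 3 (0.0604) of T47D-PA6. Without replicate 1 of T47D-PA5 these log2 differences were 4.06 and 1.82.

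MX2, the paralog of MX1 that restricts HIV at the nucleus, lies beside it on chromosome 21. Its signals were 177, 273 and 256 in T47D-VC1, 160, 244 and 223 in T47D-PA5, and 301, 279 and 287 in T47D-PA6. All T47D-PA6 arrays were above those of both other lines, and the T47D-VC1 and T47D-PA5 arrays overlapped. The T47D-PA6 mean was 1.25-fold that of T47D-VC1 (95% confidence interval 0.907 to 1.72, limma adjusted p = 0.360). The corresponding ratio was 0.890 for T47D-PA5 over T47D-VC1 (0.646 to 1.23, adjusted p = 0.757 in limma) and 1.40 for T47D-PA6 over T47D-PA5 (1.02 to 1.93, adjusted p = 0.178 in limma). None of the 3 comparisons passed the test after adjustment. A second, dimmer MX2 probe, which the files assign to the transcript ENST00000495892, went the other way. Its signals were 35.2, 24.9 and 20.9 in T47D-VC1, 31.8, 27.5 and 33.6 in T47D-PA5, and 19.6, 20.3 and 18.1 in T47D-PA6. The T47D-PA6 arrays were the lowest, with log2 fold changes of -0.45 against T47D-VC1 (limma adjusted p = 0.161) and -0.67 against T47D-PA5 (0.0543). For MX2, then, neither probe gave a call and their signs disagreed.

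The IFITM genes lie together on chromosome 11. IFITM1, which acts mainly at the plasma membrane, had signals of 2626, 2781 and 2195 in T47D-VC1 and 3548, 16014 and 13812 in T47D-PA5. In T47D-PA6 the signals were 70673, 101671 and 98136. The groups did not overlap, but replicate 1 of T47D-PA5 stood near T47D-VC1, and its other replicates were several times higher. The geometric means were 2521 (SD of log2 0.18, n = 3), 9224 (SD 1.20) and 89007 (SD 0.29). IFITM1 in T47D-PA6 was 35.3-fold above T47D-VC1 (log2 5.14, SE 0.50, limma adjusted p = 0.000988) and 9.65-fold above T47D-PA5 (log2 3.27, SE 0.50, limma adjusted p = 0.00710, and log2 2.58 without replicate 1 of T47D-PA5). In T47D-PA5 the mean was 3.66-fold that of T47D-VC1 (log2 1.87, SE 0.50) and did not pass the test (limma adjusted p = 0.118). It was called with the scan run as a block (limma adjusted p = 0.0441), an alternative chosen after the data were seen. The second IFITM1 probe had log2 differences of 5.08, 1.77 and 3.30 in T47D-PA6 over T47D-VC1, T47D-PA5 over T47D-VC1 and T47D-PA6 over T47D-PA5, within 0.1 of the first probe in all 3 comparisons.

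IFITM2 acts in endosomal membranes. Its signals were 3286, 4665 and 4051 in T47D-VC1, 6138, 10868 and 10031 in T47D-PA5, and 24596, 36534 and 36534 in T47D-PA6. The lines did not overlap, and replicate 1 was the lowest array in each. IFITM2 in T47D-PA6 was 8.09-fold above T47D-VC1 (log2 3.02, SE 0.25, limma adjusted p = 0.000602) and 3.66-fold above T47D-PA5 (log2 1.87, SE 0.25, limma adjusted p = 0.00509). The T47D-PA5 mean was 2.21-fold that of T47D-VC1 (log2 1.14, SE 0.25, limma adjusted p = 0.0685). With the slide as a block this last difference was called (limma adjusted p = 0.00552).

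IFITM3, the member of the family known for hindering entry of influenza viruses through endosomes, had signals of 4190, 4554 and 4033 in T47D-VC1. The signals were 6482, 16616 and 14226 in T47D-PA5 and 47393, 69629 and 69629 in T47D-PA6. As for IFITM2, replicates 2 and 3 of T47D-PA6 have the same value because the probe held the same rank on both arrays before quantile normalization, and the deposited values differ (73922 and 68042 for IFITM3, 40524 and 37815 for IFITM2). The lines did not overlap. IFITM3 in T47D-PA6 was 14.4-fold above T47D-VC1 (log2 3.85, SE 0.33, limma adjusted p = 0.000604) and 5.31-fold above T47D-PA5 (log2 2.41, SE 0.33, limma adjusted p = 0.00509). The T47D-PA5 mean was 2.71-fold that of T47D-VC1 (log2 1.44, SE 0.33, limma adjusted p = 0.0730), a difference that was called with the slide as a block (limma adjusted p = 0.0353).

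BST2, which tethers new virions to the cell that made them, had signals of 10312, 14487 and 14396 in T47D-VC1. The signals were 14693, 29784 and 27855 in T47D-PA5 and 45477, 56683 and 53383 in T47D-PA6. The lowest T47D-PA5 array was barely above the highest T47D-VC1 array, and T47D-PA6 was clear of both lines. BST2 in T47D-PA6 was 4.0-fold above T47D-VC1 (log2 2.0, SE 0.27, limma adjusted p = 0.00397), the smallest of the 6 rises called. It was 2.24-fold above T47D-PA5 (log2 1.17, SE 0.27, limma adjusted p = 0.0315), and this call was lost without replicate 3 of T47D-VC1 (0.0517), replicate 3 of T47D-PA5 (0.0618), or replicate 2 (0.112) or 3 (0.105) of T47D-PA6. The T47D-PA5 mean was 1.78-fold that of T47D-VC1 (log2 0.83, SE 0.27, limma adjusted p = 0.180), which was called with the slide as a block (limma adjusted p = 0.0426). The second BST2 probe had log2 differences of 2.18, 0.73 and 1.46 in the same order of comparisons as for IFITM1, and on it the T47D-PA5 and T47D-VC1 arrays overlapped, with replicate 1 of T47D-PA5 at 8647 and T47D-VC1 at 6543 to 10926.

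RSAD2, the radical SAM enzyme viperin, was measured close to background in part of the arrays. Its signals were 12.4, 3.16 and 3.06 in T47D-VC1, 9.63, 25.4 and 38.0 in T47D-PA5, and 183, 401 and 387 in T47D-PA6. The scanner software marked it well above background on 0 of 3 arrays of T47D-VC1, 2 of 3 of T47D-PA5 and 3 of 3 of T47D-PA6. RSAD2 in T47D-PA6 was therefore at least 24.4-fold higher than in T47D-VC1. This bound is taken against the lowest signal well above background on each T47D-VC1 array, averaged over the 3 arrays on the log2 scale. The limma adjusted p of 0.00184 belongs to the fitted log2 fold change of 5.95 and not to the bound. With normexp background correction the fitted log2 fold change was 2.44, a smaller rise than the bound. The bound thus holds only for the background method used here. Against T47D-PA5, the fitted RSAD2 value in T47D-PA6 was 14.5-fold higher (log2 3.86, SE 0.67, limma adjusted p = 0.0105). This fold is uncertain, since replicate 1 of T47D-PA5 did not pass the background mark. With normexp background correction the log2 fold change against T47D-PA5 was 2.09. T47D-PA5 and T47D-VC1 arrays overlapped, and the difference did not pass the test (limma adjusted p = 0.176). The T47D-PA5 mean was 1.68-fold the same T47D-VC1 floor, but it holds the array that did not pass the background mark, so it gives no firm bound. With RSAD2 set to this value, the median log2 fold change of the members in T47D-PA5 over T47D-VC1 was 1.14, and it was 1.44 with the fitted value. A second RSAD2 probe, assigned to ENST00000474872, was below that mark on each of the 9 arrays, with signals of 2.92 to 3.04.

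**Figure D2:**
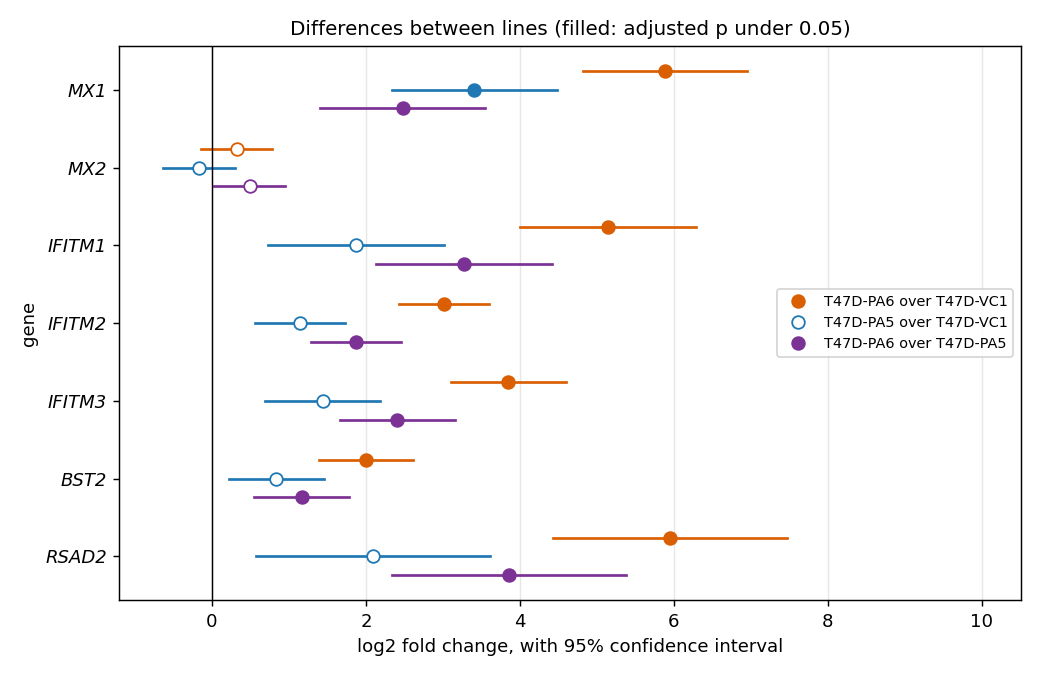
Log2 fold change of each member, with its 95% confidence interval from limma, in T47D-PA6 over T47D-VC1, T47D-PA5 over T47D-VC1 and T47D-PA6 over T47D-PA5; filled points passed the adjusted p-value of 0.05. In the first comparison 6 points are filled and in the second only MX1, at 3.41, and the RSAD2 values against T47D-VC1 are fitted values for a probe not well above background in that line.

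The line means rose in the order T47D-VC1, T47D-PA5, T47D-PA6 for 6 of the 7 members, and for 17.1% of all genes tested. For 5 members, MX1, IFITM1, IFITM2, IFITM3 and BST2, no array of a line overlapped the next line in that order by the brightest tested probe, which held for 1.35% of all genes tested. By the brightest tested probe of all 7 members, every T47D-PA6 array was above every T47D-VC1 array and every T47D-PA5 array. This held for 13.1% and 14.3% of all genes tested. By the same probes, every T47D-PA5 array was above every T47D-VC1 array for 5 members, as for 11.2% of all genes. On the second MX2 probe every T47D-PA6 array was below both other lines, and on the second BST2 probe T47D-PA5 and T47D-VC1 overlapped. The step from T47D-VC1 to its neighbour T47D-PA5 did not pass the test for IFITM1, IFITM2, IFITM3, BST2 and RSAD2, and no step passed for MX2. With 3 arrays a line, exact permutation (two-sided) has a smallest p-value of 0.1, so no single gene was tested that way.

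**Figure D3:**
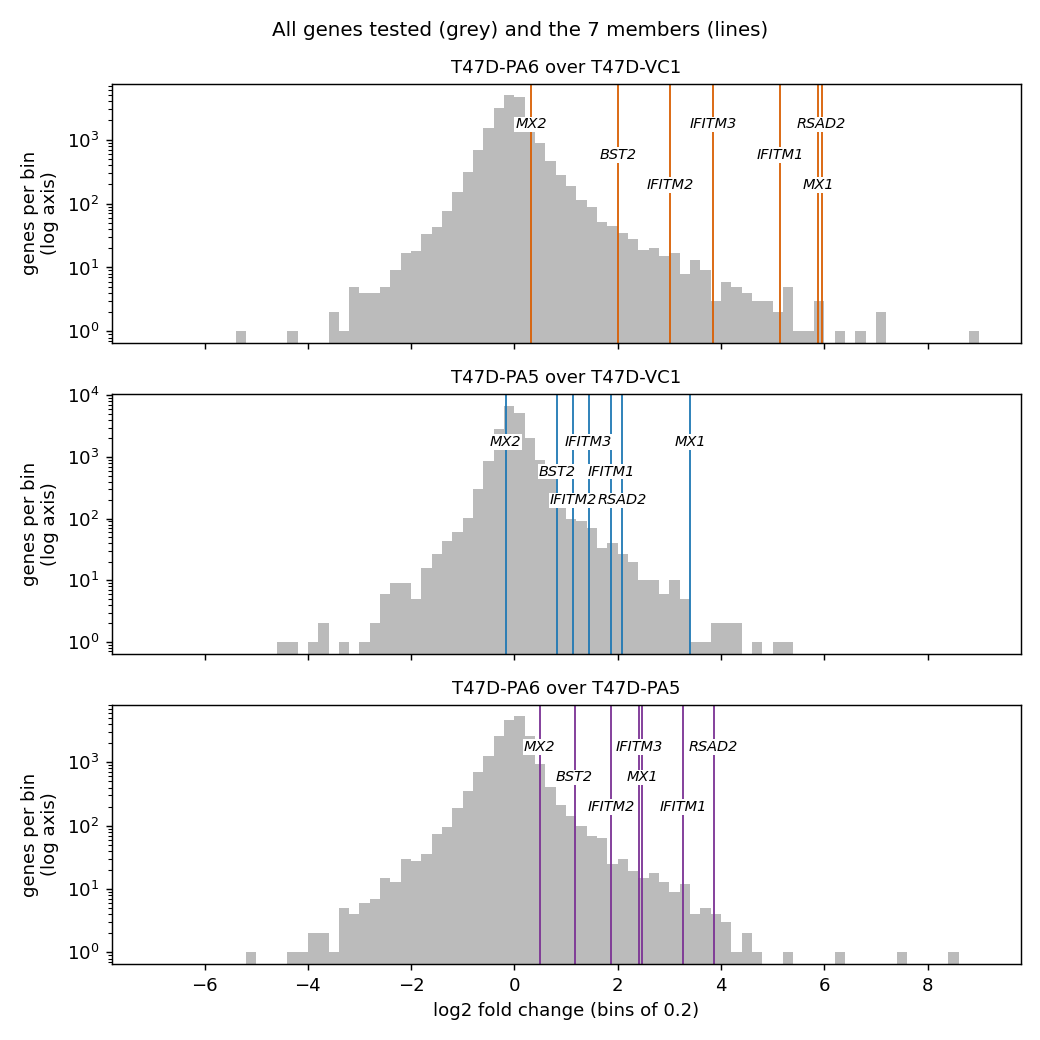
Number of genes (log axis) in bins of 0.2 of the log2 fold change for all 20090 genes tested, with the 7 members as vertical lines, in each of the 3 comparisons. In T47D-PA6 over T47D-VC1, 6 members lie on the right flank between 2.0 and 5.95, the latter the fitted value of RSAD2, and MX2, at 0.32, lies within the main body of genes in all 3 panels.

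The spread within T47D-PA5 was shared by the members. Replicate 1 of T47D-PA5 stood at 0.404 of its line's geometric mean for MX1, 0.385 for IFITM1, 0.702 for IFITM2, 0.562 for IFITM3, 0.638 for BST2 and 0.458 for RSAD2. It was the lowest of its line for every member, at 0.776 for MX2 as well. In T47D-VC1 the corresponding share ran from 0.765 to 1.04 for the members other than RSAD2, and in T47D-PA6 from 0.60 to 1.04 for all 7. This array is also the only T47D-PA5 array of the earlier scan run, and the part of the scan run in its low values was not tested.

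Within scan run 1, 1 array against 1, MX1 was 4.92-fold higher in T47D-PA5 than in T47D-VC1, and within scan run 2, 2 arrays against 2, it was 15.6-fold higher. IFITM1 was 1.35-fold that of T47D-VC1 in scan run 1 and 6.02-fold in scan run 2, and IFITM3 was 1.55-fold and 3.59-fold. IFITM2 and BST2 varied less between runs, with 1.87-fold and 2.40-fold for IFITM2 and 1.42-fold and 1.99-fold for BST2. RSAD2 gave no direction in scan run 1, where neither the T47D-PA5 nor the T47D-VC1 array passed the background mark. With replicates 2 and 3 of each line alone, which was chosen after the data were seen, 6 members were called higher in T47D-PA5 than in T47D-VC1, all but MX2, when 4307 genes were called in either direction. Without T47D-PA5 replicate 1, 5 members were called, IFITM1 (limma adjusted p = 0.00155), IFITM2 (0.0250), IFITM3 (0.00534) and BST2 (0.0239) in addition to MX1, when 419 genes were called in either direction. Without replicate 1 of T47D-PA6, IFITM2 was called too (limma adjusted p = 0.0472), and without replicate 3 of T47D-VC1 or of T47D-PA5 0 members passed in limma.

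For MX1, IFITM1, IFITM2, IFITM3 and BST2, T47D-PA6 over T47D-VC1 depended less on the run. The fold was 66.2 in scan run 1 and 55.9 in scan run 2 for MX1, 26.9 and 40.4 for IFITM1, and 11.3 and 16.2 for IFITM3. It was 7.48 and 8.40 for IFITM2 and 4.41 and 3.81 for BST2. Each of the 6 members called was higher in T47D-PA6 in both runs, and for RSAD2 no exact fold can be given, since T47D-VC1 was below the background mark in both. The MX2 ratio was 1.70 in scan run 1 and 1.07 in scan run 2. It varied more between runs than the MX2 ratio of T47D-PA5 over T47D-VC1, which was 0.902 and 0.884. In T47D-PA6 over T47D-PA5, the MX1 fold was 13.4 in scan run 1 and 3.58 in scan run 2, and that of IFITM1 was 19.9 and 6.72.

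**Figure D4:**
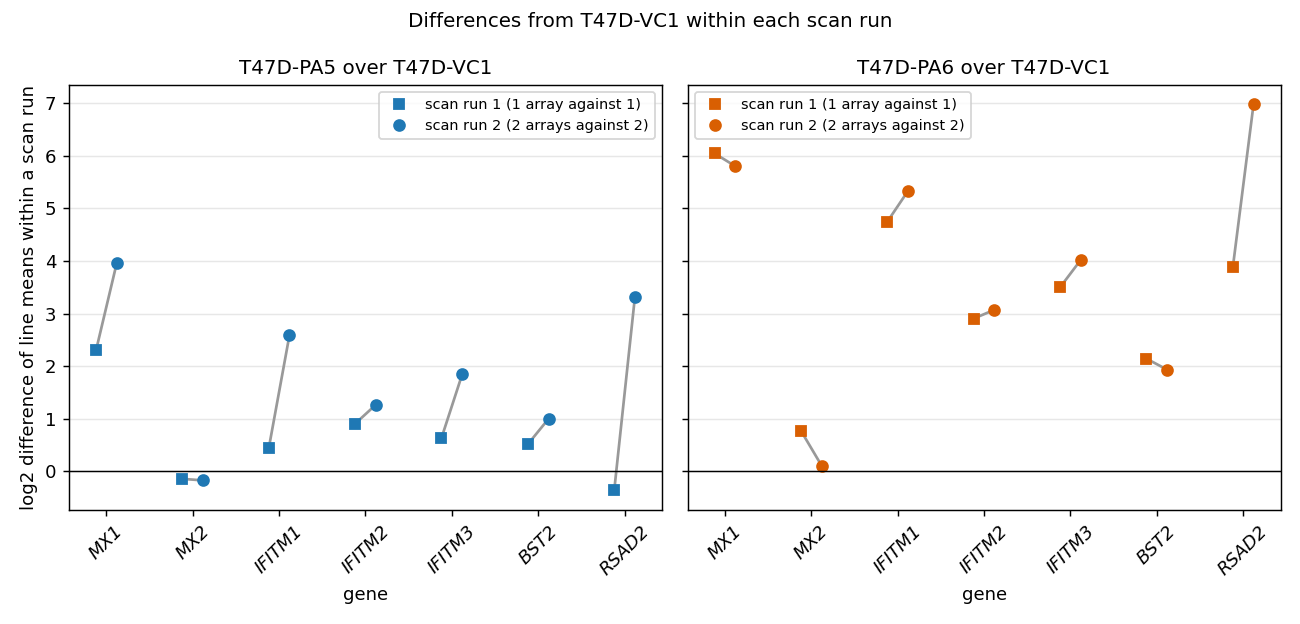
Log2 difference from T47D-VC1 of each member within scan run 1 (squares, 1 array against 1) and within scan run 2 (circles, 2 arrays against 2), for T47D-PA5 and T47D-PA6. For T47D-PA5 the square lies below the circle for every member but MX2, the T47D-PA6 differences of MX1, IFITM2 and BST2 lie close together, and the RSAD2 points are taken against a probe that was not well above background in T47D-VC1.

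The neighbours of the members along the chromosome were examined as the 2 nearest tested genes on each side, which gave 17 genes that are not members. Of these, 4 were higher and 1 lower in T47D-PA6 than in T47D-VC1, 1 was higher in T47D-PA5, and 5 had higher signals in T47D-PA6 cells than in T47D-PA5. CMPK2, a mitochondrial nucleotide kinase whose gene lies 48.7 kb from RSAD2 by probe position, was the only neighbour called higher in all 3 comparisons. It passed the background mark on 7 of the 9 arrays, with T47D-VC1 signals of 4.56 to 15.8, so that its level there is uncertain. Its geometric means were 10.1, 62.7 and 378 for T47D-VC1, T47D-PA5 and T47D-PA6, with log2 fold changes of 5.22 (limma adjusted p = 0.00100), 2.63 (0.0457) and 2.59 (0.0177). On the chromosome 21 side, TMPRSS2, a surface protease whose probe is 5.9 kb from that of MX1, was called for T47D-PA6 only against T47D-PA5 (log2 1.0, limma adjusted p = 0.0240), and its log2 difference against T47D-VC1 was 0.60 (0.115). FAM3B, beyond MX2, was lower in T47D-PA6 (log2 -1.37, limma adjusted p = 0.0277 against T47D-VC1). Its difference in T47D-PA5 over T47D-VC1 was as large but not called (log2 -1.37, limma adjusted p = 0.0685). In T47D-PA6 over T47D-PA5 it was -0.002 (limma adjusted p = 0.998). Between IFITM1 and IFITM3, the noncoding transcript lnc-IFITM2-1 (past the background mark on 8 of the 9 arrays) was in T47D-PA6 above T47D-VC1 (log2 1.06, limma adjusted p = 0.0322) and T47D-PA5 (1.56, adjusted p = 0.00798 in limma). PGGHG, beyond IFITM2, was called only against T47D-PA5 (log2 0.65, limma adjusted p = 0.0299). PSMD13 and B4GALNT4, farther out on either side, had log2 differences of 0.07 and -0.11 in T47D-PA6 over T47D-VC1 and were not called. Beside BST2, the transcript ENST00000598356 in T47D-PA6 was above T47D-VC1 (log2 1.43, limma adjusted p = 0.00857) and T47D-PA5 (log2 1.16, adjusted p = 0.0181 in limma), and MVB12A was not called (log2 0.18 against T47D-VC1). On the other side of BST2, ENST00000597169, for which no T47D-VC1 array passed the background mark, had an at least 3.95-fold higher signal in T47D-PA6 (limma adjusted p = 0.00686 for the fitted value). It is among the 4 neighbours called higher, and it entered the test only through T47D-PA6. Its bound, like that of RSAD2, rests on the background method used here, and it was not tested with another.

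The genes most like each member were those with the highest Pearson r of the log2 signal over the 9 arrays among 20090 genes, which is a description, since the arrays share lines and scan runs. For MX1 these were IFI6 (r = 0.998), IRF9 (0.997) and OAS1 (0.997). For BST2 they included BATF2 (0.993) and OAS2 (0.991), and for RSAD2 they were OASL (0.991), PLAAT4 (0.990) and IFI44 (0.986). For IFITM2 they were HERC5 (0.997), ENST00000522529 (0.997), which the files describe as an IFITM pseudogene, and PLSCR1 (0.996). IFITM1 and IFITM3 each had the other, the pseudogene IFITM4P and ENST00000522529 in their top 3. The r of IFITM3 with IFITM4P was 0.9997, and how far the probes of these close copies bind each other's transcripts was not tested. MX2 stood apart, with RINL (0.984), VSIG10L (0.978) and TCEAL8 (0.968).

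Upstream of these effectors, 7 of 11 genes of interferon signalling were called higher in T47D-PA6 (against T47D-VC1) and 0 were lower, with a median log2 fold change of 1.23. In T47D-PA5, 3 of 11 were higher, IRF9, IRF7 and the interferon-signal inhibitor USP18, and T47D-PA6 had 6 of 11 above T47D-PA5. IRF9 had geometric means of 194, 768 and 1734 for T47D-VC1, T47D-PA5 and T47D-PA6, and its log2 fold change was 3.16 in T47D-PA6 (limma adjusted p = 0.000503) and that of IRF7, a factor that drives interferon genes, was 3.0 (0.000722). The receptor chain IFNAR1 (log2 0.05) and the kinases TYK2 (-0.18) and JAK1 (-0.42) were not called, nor was IFNAR2 (0.35).

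Other interferon-induced antiviral effectors were measured by a list of 33 genes, 28 of them tested. Against T47D-VC1, 24 of the 28 in T47D-PA6 were higher and 0 lower, with a median log2 fold change of 3.02. In T47D-PA5, 15 were higher and 0 lower (median 1.43), and 17 were higher and 1 lower in T47D-PA6 than in T47D-PA5. IFI44, which was not well above background in T47D-VC1, had an at least 137-fold higher signal in T47D-PA6 (limma adjusted p = 0.000734 for the fitted value). As for RSAD2, this bound rests on the background method used here, and it was not tested with another. OAS1, a sensor of double-stranded RNA, had a fitted log2 fold change of 7.14 (limma adjusted p = 0.000518) with 7 of the 9 arrays past the background mark and T47D-VC1 signals of 11.6 to 15.6, and IFI27 rose by 7.09 (0.00119). Those not called included the capsid sensor TRIM5 (log2 0.021), SLFN11 (-0.33) and SHFL (0.26). The lists of genes were drawn up with results of these data known, so that their counts are a description.

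Of 12 genes of proteins that act with the members, 1, CMPK2, which is listed among the effectors too, was called higher in T47D-PA6, and in T47D-PA5, against T47D-VC1 and 0 were lower, and the median log2 fold change in T47D-PA6 was 0.04. ZMPSTE24, ZDHHC20, NEDD4 and VAPA, which palmitoylate, ubiquitinate or bind IFITM proteins, were among the 11 not called. In T47D-PA6 over T47D-PA5, CMPK2 was higher, and ZDHHC20 (log2 -0.66, limma adjusted p = 0.00691), FDPS (-0.99, adjusted p = 0.00691 in limma) and RNF115 (-0.57, adjusted p = 0.0368 in limma) were lower. FDPS, an enzyme of the mevalonate pathway that binds viperin, had a log2 difference of -0.51 against T47D-VC1 (limma adjusted p = 0.0681). Of the family relatives IFITM5, IFITM10, DNM1, DNM2, DNM3, DNM1L and RSAD1, 5 were tested and 0 were called in any of the 3 comparisons by limma, with log2 differences between -0.29 and 0.43 in T47D-PA6 over T47D-VC1.

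Of 6 leukocyte markers, the T-cell gene CD3E and the plasmacytoid dendritic cell genes LILRA4 and CLEC4C stayed below the background mark throughout. The summed signal of the 6 was 468 to 556 in T47D-VC1, 412 to 826 in T47D-PA5 and 583 to 720 in T47D-PA6, and 1 of the 3 tested, CD14, rose in T47D-PA6 (log2 1.80 against T47D-VC1, limma adjusted p = 0.00822). The pan-leukocyte gene PTPRC had geometric means of 20.3, 20.8 and 18.0 for T47D-VC1, T47D-PA5 and T47D-PA6. Of 5 fibroblast and endothelial markers, COL1A2, DCN and PECAM1 stayed below that mark, the summed signal was 360 to 406 in T47D-VC1, 319 to 361 in T47D-PA5 and 268 to 295 in T47D-PA6, and COL1A1 was lower in T47D-PA6 (log2 -0.50 against T47D-VC1, limma adjusted p = 0.0198). The part of such markers in the members' differences was not tested.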

How the data were processed

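RNA of the 3 lines was hybridised to Agilent SurePrint G3 Human Gene Expression arrays, 3 per line. The authors deposited the background-subtracted intensity of each spot from Feature Extraction, which the submitters' processing notes name as version 9.5.1.1 and the file headers as 10.7.1.1. A table of quantile-normalized intensities that the authors deposited was used only as an alternative. Of 62976 spots, 60901 were not controls and stand for 58201 probes. Spots flagged as outliers were left out, repeated spots were averaged as log2 values, and arrays were quantile-normalized. The probes kept for testing passed the background mark on all 3 arrays of 1 or more lines, which left 26153 probes and 20090 genes, each gene read from its brightest tested probe. The number of arrays limits the precision. Gene names follow a RefSeq gene table where a symbol (31127 probes), accession (3343) or synonym (496) matched, and the file's name otherwise.

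The comparisons used limma 3.58.1 (R 4.3.3), with lmFit and eBayes, fitted once to 9 arrays with 6 residual degrees of freedom, with Benjamini-Hochberg adjustment over all genes and a threshold of 0.05. A fold is a bound where no array of a line passed the background mark, and a p-value beside it belongs to the fitted value. Same-numbered arrays deviated together between T47D-PA6 and T47D-VC1 (r from 0.131 to 0.336) and between T47D-PA6 and T47D-PA5 (0.166 to 0.272), but arrays of scan run 2 with different numbers did so as well (0.243 for T47D-VC1 replicate 2 with T47D-PA6 replicate 3). The fit was tested on simulated data. Figures were drawn with matplotlib 3.10.9. Genes named are the members, the 3 genes most like each, the 2 nearest tested genes on each side, and up to 3 rises and 3 falls per list, and USP18, IFNAR2, SHFL, RNF115, ZMPSTE24 and the marker genes were named after their values were seen. The members and lists were chosen with earlier results of these data known. Alternatives were a 75th percentile shift, normexp with an offset of 50, the authors' table, other probe filters, slide, scan run and replicate blocks, each array left out, replicates 2 and 3 alone, an intensity trend, the methods' unpaired test, the compared lines alone, and other ways to read a gene from its probes. The study's analysis of variance was not run. Some genes of these lists are not reported here.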

Additional observations from a re-analysis of the deposited data

How the results depend on the processing

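MX1, IFITM1, IFITM2, IFITM3 and BST2 stayed called in T47D-PA6 over T47D-VC1 under all 24 alternatives, and RSAD2 under 22 of 23, the exception being the methods' unpaired test (adjusted p = 0.0557). The log2 fold change ran from 5.79 to 6.03 for MX1, 5.04 to 5.34 for IFITM1, 2.88 to 3.21 for IFITM2, 3.76 to 4.03 for IFITM3, 1.84 to 2.09 for BST2 and, as fitted values, 2.44 to 6.98 for RSAD2. RSAD2 could not be given a value when probes had to be well above background on all 9 arrays. The members called in T47D-PA5 over T47D-VC1, 1 in the fit reported, were 3 with normexp, 3 with an intensity trend, 4 with the slide as a block, 5 with the scan run as a block, 6 with replicates 2 and 3 alone, 0 with no filter on dim probes and 0 with the methods' unpaired test. With 1 array left out they were 0 to 5 (2 without T47D-PA6 replicate 1), against 6 in each case for T47D-PA6 over T47D-VC1 and 4 to 6 for T47D-PA6 over T47D-PA5. In that last comparison the methods' unpaired test called 0 members, and 7 passed with replicates 2 and 3 alone, 4 with no filter on dim probes, and 5 with the lines compared alone. MX1 lost its calls in T47D-PA5 over T47D-VC1 and T47D-PA6 over T47D-PA5 with no filter (limma adjusted p = 0.0549 and 0.0574). The sign of MX2, which was never called against T47D-VC1, reversed with the mean of its tested probes, to -0.064 in T47D-PA6 over T47D-VC1, 0.029 in T47D-PA5 over T47D-VC1 and -0.093 in T47D-PA6 over T47D-PA5, and with 1 array left out the value in T47D-PA5 over T47D-VC1 ran from -0.36 to 0.015, the latter without T47D-PA5 replicate 1. The second probe, of opposite sign, enters that mean; the cause of the other changes was not tested.

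The genes called over the whole array moved more. In T47D-PA6 over T47D-VC1 they were 2016 in the fit reported, 1286 with no filter, 3940 with the scan run as a block, 7466 with replicates 2 and 3 alone, 1145 with only the lines compared, 432 with the methods' unpaired test, and 702 to 2769 with 1 array left out. In T47D-PA5 over T47D-VC1 they were 334, and 204 with no filter, 607 with the slide as a block, 1060 with the scan run as a block, 4307 with replicates 2 and 3 alone, 39 with the methods' unpaired test and 99 to 620 with 1 array left out. In T47D-PA6 over T47D-PA5 they were 1953, and 1263 with no filter, 3577 with the scan run as a block, 7137 with replicates 2 and 3 alone, 789 with the methods' unpaired test and 726 to 2954 with 1 array left out. The scan run block, replicates 2 and 3 alone and a percentile shift over all probes were chosen after the data were seen. Same-numbered arrays of T47D-PA5 and T47D-VC1 lay on the same slide, but the deviations of replicate 2 correlated at only 0.0987 and its T47D-VC1 array correlated more with replicate 3 of T47D-PA5 (0.103). With the replicate block 2620, 489 and 2428 genes were called in the 3 comparisons, and 6, 3 and 6 members, IFITM2 (limma adjusted p = 0.00707) and IFITM3 (0.0403) being added in T47D-PA5 over T47D-VC1 and no other member's call changed. Signal over background limits RSAD2, and 3 arrays per line limit every value.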
